A study of Mus musculus with 12 samples.

Results

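miR-128 (mmu-miR-128 in miRBase) is a single miRNA, 1 of the 469 miRNAs listed in at least one count table of this miRNA-Seq study. It was followed by its row of counts and by the genome alignments over the hairpins that encode it. The study compared the frontal cortex (FCx) and the hippocampus (HP) of untreated male C57BL/6J mice aged 8 weeks. The FCx was cortical tissue from a slice that the labels place at Bregma -1.5 to -3.5 mm, and the HP was taken whole. For each region the tissue of 3 mice was pooled before the RNA was extracted, and that RNA was made into 3 libraries. The libraries differ in a tag of 6 nt, the index, at the end of the 5′ adaptor that is joined to the miRNA. The indexes are number 3 (UUAGGC), number 7 (CAGAUC) and number 11 (GGCUAC). Each library was sequenced in an individual lane and in a lane pooled with the other indexes, which gave 12 lane files. The lanes of a library were summed here, so n = 3 libraries per region. These libraries share an RNA pool, and their spread is technical and does not include differences between mice. The libraries held 391410 to 1461732 miRNA counts in FCx and 3206221 to 4956117 in HP.

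As background, miR-128 is an abundant miRNA of neurons in the mammalian brain. Its hairpins lie in introns of a pair of host genes, R3hdm1 and Arpp21. The enzymes Drosha and Dicer cut the hairpin from the host transcript, and the strand of its 3′ arm, called 3p, is kept by Argonaute. Bases 2 to 8 of that strand, the seed, pair with target mRNAs, so the position of the 5′ end decides which targets are recognised. The strand of the 5′ arm, called 5p, is usually discarded.

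The hairpins are shown first because the placement of the reads turns on where they differ. They were read from the genome build of the alignments, NCBIM37, and the capitals mark the mature 3p strand as given by RefSeq. Mir128-1 is at chr1:130098932-130099013 on the plus strand and Mir128-2 at chr9:112021136-112021219 on the minus strand.
Mir128-1: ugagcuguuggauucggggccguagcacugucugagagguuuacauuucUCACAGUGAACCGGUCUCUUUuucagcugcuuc
Mir128-2: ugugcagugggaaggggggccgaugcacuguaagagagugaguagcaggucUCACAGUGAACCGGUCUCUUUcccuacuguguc
The mature strand follows with its seed in capitals.
miR-128-3p: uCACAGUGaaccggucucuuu

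The mature sequence of 21 nt starts at base 50 of the Mir128-1 hairpin and at base 52 of the Mir128-2 hairpin. It lies at chr1:130098981-130099001 and at chr9:112021148-112021168. Mir128-1 lies inside an intron of 14107 bases (chr1:130093675-130107781) in both annotated transcripts of R3hdm1 that span it. Mir128-2 lies inside an intron of Arpp21 in each of 12 transcripts that span it, the shortest of which is chr9:112019272-112021686. No exon of these host transcripts overlapped either hairpin, and each hairpin is on the strand of its host. The mature sequence occurred without a mismatch at 2 places in the genome, which are these hairpins, and at no place with 1 mismatch. Among 1679 mature mouse sequences of RefSeq, no other miRNA had its seed. The hairpins share a stretch of 23 bases that begins 2 bases before the mature strand and ends with its last base.

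miR-128 was among the most abundant miRNAs of both regions and took a larger share of the miRNA counts in FCx than in HP. In FCx it made up 19.6% of the counts with index 3, 17.7% with index 7 and 20.8% with index 11. In HP it made up 6.40% with index 3, 7.07% with index 7 and 11.0% with index 11. Every FCx library was above every HP library. The mean share was 19.4% ± 1.58 (SD, n = 3) in FCx and 8.17% ± 2.51 (SD, n = 3) in HP, a difference of 11.2 percentage points and a ratio of 2.37. The exact two-sided permutation test over the 6 libraries gave p = 0.1, which is the lowest value possible with 3 libraries on each side. Counting error was small beside this spread, since the widest 95% Wilson interval of a library, index 3 in FCx, ran from 19.5% to 19.7%. Groups that did not overlap in this direction were found for 5.57% of the 431 miRNAs tested.

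The size of the ratio depended on the index and on the lane. FCx over HP was 3.06 with index 3, 2.50 with index 7 and 1.89 with index 11, and 19.7% of the 431 miRNAs were higher in FCx at each index. Among the lane files, the FCx shares ran from 17.5% to 23.5% and the HP shares from 4.95% to 11.1%. The lane files of the regions therefore did not overlap either, as for 2.78% of the miRNAs tested. The lanes of one library differed most with index 3 in HP, where miR-128 took 4.95% in the individual and 8.92% in the pooled lane. With library sizes scaled by TMM, a normalization that assumes most miRNAs do not change, the difference in share was 7.06 percentage points and the regions overlapped (exact permutation p = 0.2). Reads on the hairpins were also set against all genome alignments of 14 nt or more. For indexes 3, 7 and 11 they were 13.6%, 13.1% and 8.60% in FCx and 5.90%, 6.46% and 8.42% in HP. On that base the individual lanes of index 11 were at 8.13% in FCx and 8.42% in HP, so the lane files overlapped.

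**Figure D1:**
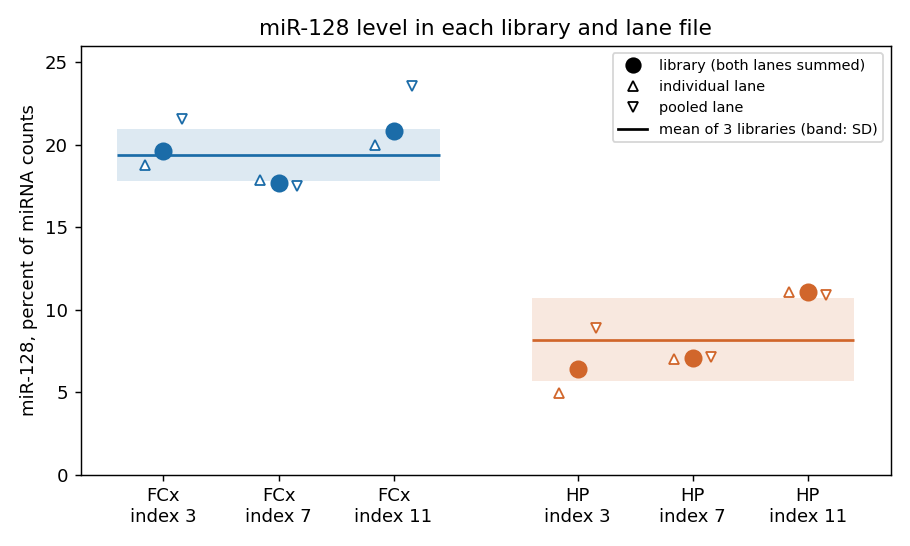
Share of miR-128 in the miRNA counts (vertical axis, percent) by region and index. Filled points are libraries, open triangles their individual and pooled lanes, lines the means and bands the SD of 3 libraries. All FCx lane files lie at 17.5% or above and all HP lane files at 11.1% or below.

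miR-128 was second in mean level over the 6 libraries, below let-7c, and the miRNAs next to it in the order were mostly of the let-7 family. By mean share in FCx the order was let-7c at 21.1% ± 3.17 (SD, n = 3), miR-128, let-7b at 9.09% ± 0.955 and miR-29a at 8.49% ± 5.90. miR-128 and let-7c did not differ beyond their spread there, and miR-128 ranked first in 2 FCx libraries and second in the third. In HP the order was let-7c at 27.4% ± 0.923, let-7a at 8.88% ± 1.86, let-7b at 8.75% ± 0.258, miR-128, miR-29a at 8.09% ± 5.32 and let-7f at 6.98% ± 1.07. miR-128 lay within the spread of its neighbours from let-7a to let-7f in HP, at ranks 3 to 5 of a library. The ratio of miR-128 to let-7c in the same library does not depend on the library total. It does depend on the level of let-7c, whose mean share was lower in FCx. The ratio was 1.04, 0.716 and 1.05 in the FCx libraries and 0.236, 0.248 and 0.414 in those of HP, for indexes 3, 7 and 11. The regions did not overlap in this ratio.

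In the edgeR quasi-likelihood test with TMM, miR-128 was 0.77 higher in FCx on the log2 scale (SE 0.58), with an adjusted p of 0.992. That test called 2 of 431 miRNAs (0.464%), both higher in FCx. TMM shifted the median log2 fold change of all miRNAs to -0.37, and relative to that median miR-128 was 1.14 higher. The libraries with the same index deviated together, and with the index as a block the fold change was 0.86 (SE 0.35) and the adjusted p 0.0631 in edgeR's test. The blocked fit called 17.9% of the miRNAs, of which 22 were higher in FCx (5.10% of those tested) and 55 lower. With the block and library totals in place of TMM, miR-128 was 1.29 higher (SE 0.15), and edgeR's adjusted p was 3.80e-15. In that fit 13.0% of the miRNAs were called, 8.35% as higher in FCx, and the median of all was -0.01. The call for miR-128 was thus made only in the blocked fit on library totals among the fits run. The value rested most on the HP library with index 11, without which the fold change with TMM and no block was 1.66 on the log2 scale (adjusted p = 0.475).

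**Figure D2:**
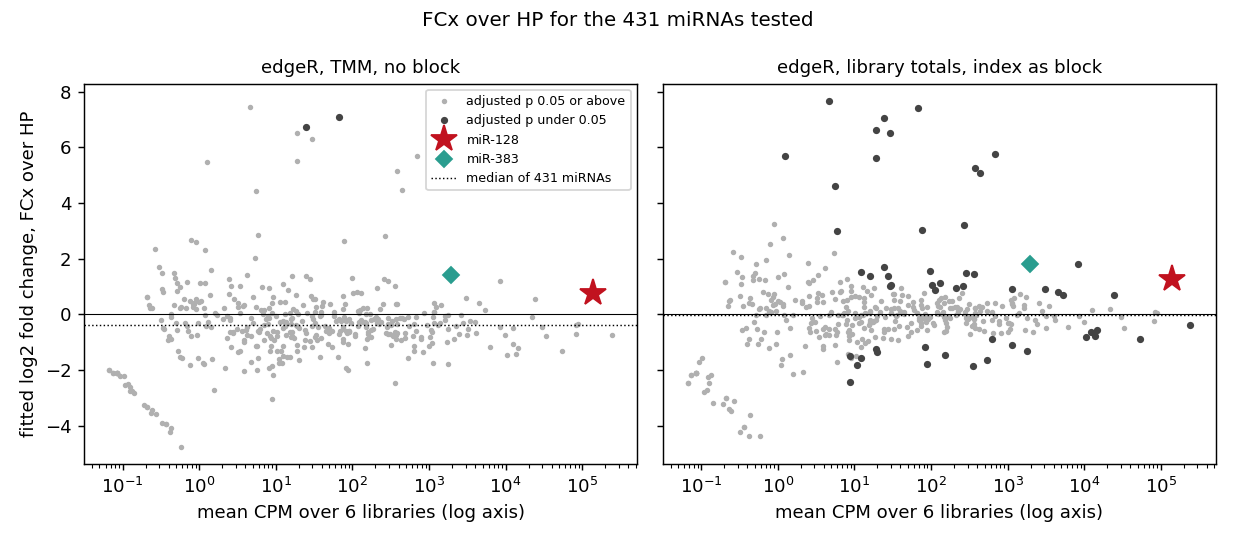
Fitted log2 fold change of FCx over HP (vertical axis) against mean CPM over the 6 libraries (horizontal log axis) for 431 miRNAs, without a block and with TMM on the left, with the index as a block and library totals on the right. Dark points have an adjusted p under 0.05, the star is miR-128 (0.77 on the left, 1.29 on the right) and the diamond is miR-383.

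Markers of other cells were checked beside this difference. The neuronal list (miR-124, miR-9, miR-137 and miR-138) summed to 33684 to 95696 CPM in FCx and 38687 to 99181 CPM in HP. The defining neuronal miRNAs were thus present in both regions and the ranges of the sum overlapped, with HP above FCx at each index. The members did not move together. miR-9 and miR-137 were higher in HP at each index, and miR-138 only with index 7. miR-124 was higher in FCx at each index, at 27912, 57775 and 4091 CPM beside 15170, 39174 and 2504 CPM in HP. A list of 8 miRNAs of olfactory and epithelial tissue summed to 1478 to 5702 CPM in FCx and 24.7 to 134 CPM in HP. All 8 were called as higher in FCx in the blocked fits of edgeR with TMM (22 of the 431 miRNAs) and with library totals (36 of the 431). DESeq2 and edgeR's exact test also called all 8, where they called 2.78% and 2.32% of the 431. In edgeR's test without a block 2 of the 8 were called, which were all the calls it made. All 8 were higher in each FCx library than in each HP library, as were 5.57% of the 431, and 1 of them was at 0 in every HP library. The part of these miRNAs' source tissue in the level of miR-128 was not tested. The 5 miRNAs of choroid plexus and ependyma summed to 94.5, 65.7 and 50.6 CPM in the FCx libraries and to 247, 273 and 92.5 CPM in those of HP for indexes 3, 7 and 11, so they were higher in HP at each index. In edgeR's blocked fits 3 of the 5 were called lower in FCx with TMM, beside 55 of the 431. On library totals 2 were called lower, beside 20 of the 431. The part of their source tissue was not tested either. Lists for oligodendrocytes, blood and microglia, vessels and other tissues overlapped between the regions in their summed level, and none was higher in the same region at all 3 indexes except other tissues, which were higher in FCx. In pooled tissue, fewer cells of a type and less miR-128 per cell cannot be told apart.

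The level of miR-128 moved less with the index than that of most other miRNAs. The highest index was 1.18 times the lowest in FCx and 1.73 times the lowest in HP. Over 139 miRNAs that averaged 100 CPM or more and had counts in every library, the median of this ratio was 4.32 in FCx and 3.85 in HP. In FCx 1 of the 139 had a smaller ratio than miR-128, and in HP 22 did. In FCx index 7 gave the lowest share and index 11 the highest, while in HP index 3 gave the lowest and index 11 the highest. In edgeR's F test of the index, fitted together with the region, the 3 indexes spanned 0.98 on the log2 scale for miR-128, with an adjusted p of 0.0939. The span was 0.61 for let-7c, 0.55 for let-7b, 0.51 for let-7a and 0.43 for let-7f. These neighbours in level thus moved less than miR-128 in that test, while miR-29a spanned 2.67. The same test called 61.3% of the 431 miRNAs. The call for miR-128 changed with the libraries used. It was made without the FCx library of index 7 (adjusted p = 0.0193), without that of index 11 (adjusted p = 0.00663) and without the HP library of index 7 (adjusted p = 0.00997), all by edgeR.

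Beside miR-128, 27 miRNAs known for high levels in the brain were described as a list. All 27 were measured in both regions. In edgeR's test without a block 0 were called, with 1 at an unadjusted p under 0.05, and DESeq2 and edgeR's exact test called 0 as well, against 2.78% and 2.32% of all 431 miRNAs. DESeq2 gave no adjusted p for miR-134, miR-137 and miR-218, which were counted as not called. With the block and TMM 3 were higher and 6 lower in FCx, beside 22 and 55 of the 431. On library totals 4 were higher and 4 lower, beside 36 and 20 of the 431. Their median log2 fold change was -0.19 without the block, against -0.37 over all miRNAs tested. Between indexes 25 of the 27 were called, beside 61.3% of the 431. For the 20 of them with at least 100 CPM on average, the ratio of the highest to the lowest index had a median of 6.16 in FCx and 7.04 in HP. The ratio reached 1179 in FCx and 1272 in HP for miR-137, which made up 31458 CPM with index 3 in FCx and 26.7 CPM with index 7. No member of the list had a smaller ratio than miR-128 in FCx, and 4 of the 20 did in HP.

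The members of that list higher in FCx in the blocked fit were miR-132, miR-212 and miR-383. miR-132 and miR-212 come from one transcript that neuronal activity induces. miR-132 was at 16806, 731 and 22160 CPM in the FCx libraries and at 3711, 252 and 6502 CPM in those of HP for indexes 3, 7 and 11. It was therefore higher in FCx at each index, although the regions overlapped over all libraries. Its blocked fold change was 1.41 on the log2 scale (edgeR adjusted p = 0.000102). The members that were lower in FCx in the same fit were miR-9, miR-137, miR-218, miR-219, miR-7a and miR-7b. Of these miR-9, which acts in neural progenitors and neurons, had a blocked fold change of -0.89 (edgeR adjusted p = 0.0348). miR-7a had a blocked fold change of -2.26 (edgeR adjusted p = 7.37e-12). miR-219, known from oligodendrocyte maturation, had one of -1.09 (edgeR adjusted p = 0.00287). For miR-124, the most abundant member of the list in these FCx libraries on average, the blocked fold change was 0.30 (edgeR adjusted p = 0.61), and its level was 27912, 57775 and 4091 CPM in FCx. For miR-138 it was -0.74 (edgeR adjusted p = 0.0569). On library totals with the block, miR-124 was called at 0.72 (edgeR adjusted p = 0.00304), while miR-9 at -0.47 (edgeR adjusted p = 0.0736) and miR-219 at -0.65 (edgeR adjusted p = 0.185) were not.

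The miRNA whose log2 level followed that of miR-128 most closely over the 6 libraries, among those that averaged 100 CPM or more, was miR-383 (Pearson r = 0.924). miR-383 was at 2468, 2852 and 3783 CPM in the FCx libraries and at 633, 1089 and 899 CPM in those of HP, so its FCx libraries all lay above its HP libraries. It was followed by miR-212 (r = 0.818), miR-200a (r = 0.794), miR-200b (r = 0.789) and miR-423-5p (r = 0.765). The miRNAs miR-200a and miR-200b belong to the olfactory and epithelial list. After each region was centred, so that the index remained, the closest were miR-93 (r = 0.847), miR-99a (r = 0.83), miR-218 (r = 0.79), miR-29b (r = 0.788) and miR-143 (r = 0.764). The 6 points of each correlation share 2 RNA pools, 3 indexes and the library totals, so these values only describe which profiles were alike.

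The alignments gave a second view of the same reads. Over all files 1466931 alignments of 14 nt or more lay on the hairpins, which was 99.3% to 99.6% of the miR-128 counts of a library. None lay on the opposite strand, and none lay within 1000 bases of a hairpin without touching it. The 3p arm held 1466805 of the hairpin reads and the 5p arm 118, and 8 lay elsewhere. miR-128 was thus seen almost wholly as its 3p strand in both regions.

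**Figure D3:**
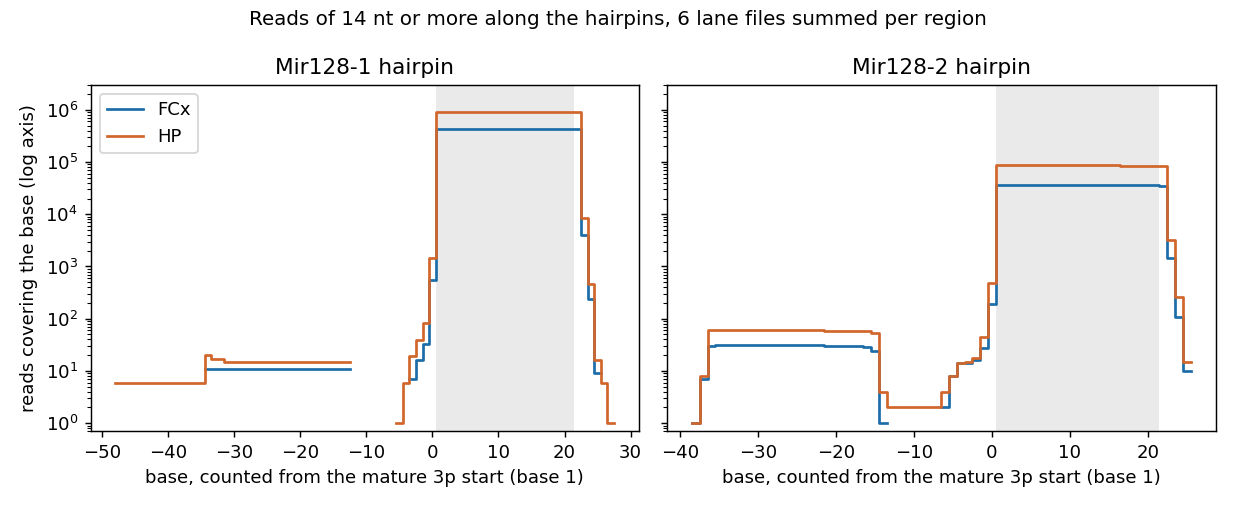
Reads of 14 nt or more that cover each base of the hairpins (vertical log axis) against the base counted from the mature 3p start (horizontal axis), with the 6 lane files of a region summed. The grey band is the mature strand, which holds nearly all reads, and the low step to its left is the 5p arm, with 118 reads in all.

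Most of the 3p reads were placed on Mir128-1. The share of hairpin reads placed on Mir128-2 of chromosome 9 was 8.84%, 7.49% and 8.25% in the FCx libraries and 9.84%, 8.05% and 8.83% in those of HP, for indexes 3, 7 and 11. Index 7 gave the lowest share in both regions, and HP was above FCx at each of the 3 indexes. The means were 8.19% ± 0.673 in FCx and 8.90% ± 0.898 in HP (SD, n = 3). They differed by -0.711 percentage points, which the exact permutation test did not separate from the spread (two-sided p = 0.5). The difference was -0.245 without the HP library of index 3, -0.361 without the FCx library of index 7 and -1.14 without the HP library of index 7. With the index as a block, the exact sign-flip test gave p = 0.25, the smallest it can give with 3 pairs.

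How much of this placement reflects the locus depends on how far a read reaches, so the windows that start at the mature 5′ end are printed with the bases past the shared stretch in capitals.
Mir128-1, 22 bases: ucacagugaaccggucucuuuU
Mir128-2, 22 bases: ucacagugaaccggucucuuuC
Mir128-1, 23 bases: ucacagugaaccggucucuuuUU
Mir128-2, 23 bases: ucacagugaaccggucucuuuCC
The windows of 22 bases differ at 1 base and those of 23 bases at 2. The 3′ adaptor given in the methods begins with U and C. The window of Mir128-1 with 22 bases is the same as the mature 21 bases followed by the first adaptor base. That of Mir128-2 is the same as the first 20 mature bases followed by the first 2 adaptor bases. The files hold positions without read sequences. A 22-base alignment from either hairpin cannot be told apart from a shorter mature strand with adaptor bases left on.

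The placement differed between read classes. Of the 19899 3p reads inside the shared stretch, which the hairpins cannot tell apart, 25.7% were placed on Mir128-2, with library values from 24.2% to 28.8%. Of the 1429597 that reached 1 base past the stretch, 8.03% were placed there, with library values from 6.97% to 9.25%. Of the 17309 that reached 2 or more bases past it, 27.1% were placed there, with library values from 25.03% to 28.6%. The middle class lay below the others in every library. Only the 5p arm is free of the shared stretch, and its strands are printed with their seeds in capitals.
miR-128-1-5p: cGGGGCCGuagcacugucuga
miR-128-2-5p: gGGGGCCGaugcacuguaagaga
These lie at chr1:130098946-130098966 and at chr9:112021183-112021205. The 5p reads were 26 on Mir128-1 and 92 on Mir128-2, so 78.0% came from Mir128-2 (95% exact binomial interval 69.4% to 85.1%, which covers counting error only). All 26 on Mir128-1 and 76 of the 92 on Mir128-2 began at the mature 5p start. In each library the share of 5p reads from Mir128-2, 55.0% to 100%, was above the share of 3p reads placed there, although the latter rests on the windows of 22 bases described above. Single libraries held few 5p reads. The share was 11 of 20 with index 7 in FCx (exact interval 31.5% to 76.9%), 5 of 7 with index 11 in FCx (29.0% to 96.3%) and 7 of 10 with index 11 in HP (34.8% to 93.3%), and these intervals do not settle which hairpin gave more. In the pooled lane of index 7 in FCx, 6 of 13 were from Mir128-2 (46.2%).

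**Figure D4:**
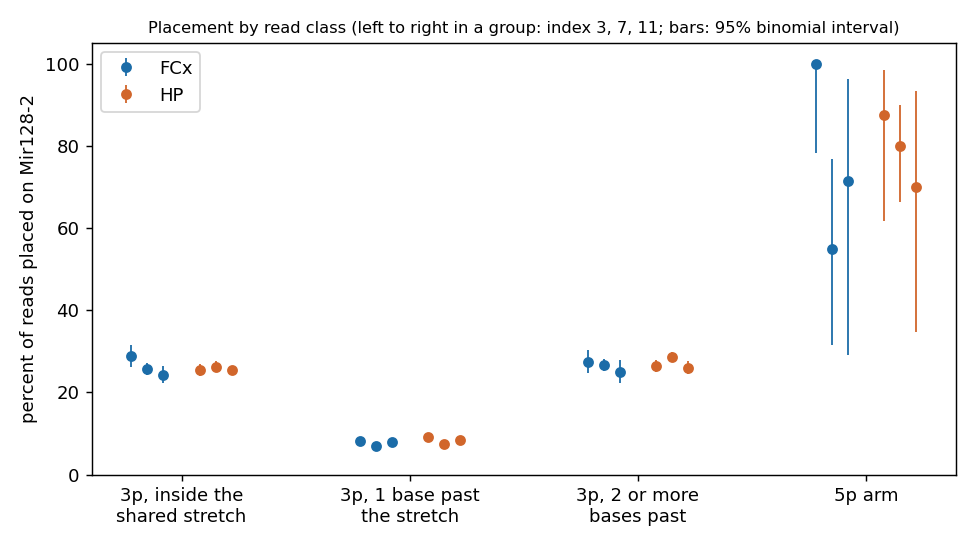
Percent of reads placed on Mir128-2 (vertical axis) for 3p reads inside the shared stretch, 1 base past it and 2 or more bases past it, and for 5p reads (horizontal axis). Points are libraries in the order of indexes 3, 7 and 11 and bars are 95% binomial intervals, which are wide for the 5p arm because it holds 7 to 50 reads per library.

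The 5p reads were 15, 20 and 7 in the FCx libraries and 16, 50 and 10 in those of HP for indexes 3, 7 and 11. Their share of the hairpin reads was 0.0109% ± 0.00772 in FCx and 0.00815% ± 0.00606 in HP (SD, n = 3), and these overlapped (exact permutation p = 0.7). There were 5088 to 19325 3p reads per 5p read in FCx and 6965 to 44628 in HP.

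The 5′ end of the 3p reads was nearly fixed. The share that began at the mature start was 99.04%, 99.5% and 99.8% in the FCx libraries and 99.005%, 99.2% and 99.7% in those of HP for indexes 3, 7 and 11. The regions did not differ beyond the spread between libraries, with means of 99.4% ± 0.367 and 99.3% ± 0.36 (SD, n = 3, exact permutation p = 0.7). In both regions index 3 gave the lowest share and index 11 the highest.

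The starts beside the main one change the seed and are printed with the seed in capitals, next to the miRNAs of the miR-27 family.
miR-128-3p, 1 base upstream: cUCACAGUgaaccggucucuuu
miR-27a-3p: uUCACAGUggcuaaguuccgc
miR-27b-3p: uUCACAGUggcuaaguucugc
miR-128-3p, 1 base downstream: cACAGUGAaccggucucuuuuu
The upstream start carries the seed of miR-27a and miR-27b, which are known for roles in lipid metabolism and in vessels. Each index ends in C, which is also the base before the mature start in both hairpins. Without read sequences, an upstream start cannot be told apart from a mature start with the last index base left on. No mature sequence in RefSeq had the seed of the downstream start. The upstream start made up 0.311%, 0.0966% and 0.142% of the 3p reads in the FCx libraries and 0.311%, 0.136% and 0.154% in those of HP, for indexes 3, 7 and 11. Both regions were highest with index 3 and lowest with index 7, as at 11.0% of 91 abundant start sites of the series. Over the other sites the median upstream share was 0.231%, 0.125% and 0.118% in the FCx libraries and 0.217%, 0.141% and 0.156% in those of HP. In reads, these were 237, 248 and 192 in FCx beside 677, 2316 and 1015 counts of miR-27a and miR-27b together. In HP they were 634, 474 and 687 beside 6754, 13097 and 10420 counts. The upstream reads thus equalled 10.7% to 35.0% of the miR-27 counts in FCx and 3.62% to 9.39% in HP. This ratio also carries the levels of miR-128 and miR-27, since the upstream share of the 3p reads itself overlapped between the regions. miR-27b itself was at 1380 ± 124 CPM in the cortical and 2036 ± 180 CPM in the hippocampal libraries (SD, n = 3), and its fold change was -0.99 on the log2 scale without the block (edgeR adjusted p = 0.992) and -0.98 with it (edgeR adjusted p = 0.00764). miR-27a was at 243 ± 40.6 CPM in the cortical and 404 ± 147 CPM in the hippocampal libraries, with a blocked fold change of -1.10 (edgeR adjusted p = 0.00175). On library totals with the block, the fold changes were -0.56 for miR-27b (edgeR adjusted p = 0.2) and -0.69 for miR-27a (edgeR adjusted p = 0.153).

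The downstream start followed the index in both regions. It made up 0.525%, 0.282% and 0.0724% of the 3p reads in the FCx libraries and 0.565%, 0.461% and 0.115% in those of HP, for indexes 3, 7 and 11. The order from index 3 to index 11 was the same in FCx and HP, and HP was above FCx at each index, as at 7.69% of 91 start sites of the series. These 91 sites had at least 10000 reads and no larger site beside them, and 2 of them were those of miR-128. Of the 91, 20.9% showed this order of indexes in both regions. At 46.2% of the sites index 11 had the lowest share in both regions. Over the other sites the median share of reads 1 base downstream was 0.804%, 0.712% and 0.154% in the FCx libraries and 0.683%, 0.758% and 0.223% in those of HP. Taken over both hairpins, the downstream share at miR-128 lay below the median site for each index in both regions. The sites, however, were counted for each hairpin apart. On Mir128-2, 110, 165 and 19 of 6745, 19249 and 11160 hairpin reads had this start in FCx for indexes 3, 7 and 11. In HP they were 304, 420 and 115 of 20055, 28021 and 39414. Mir128-2 alone thus lay above the median site for each index in both regions.

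**Figure D5:**
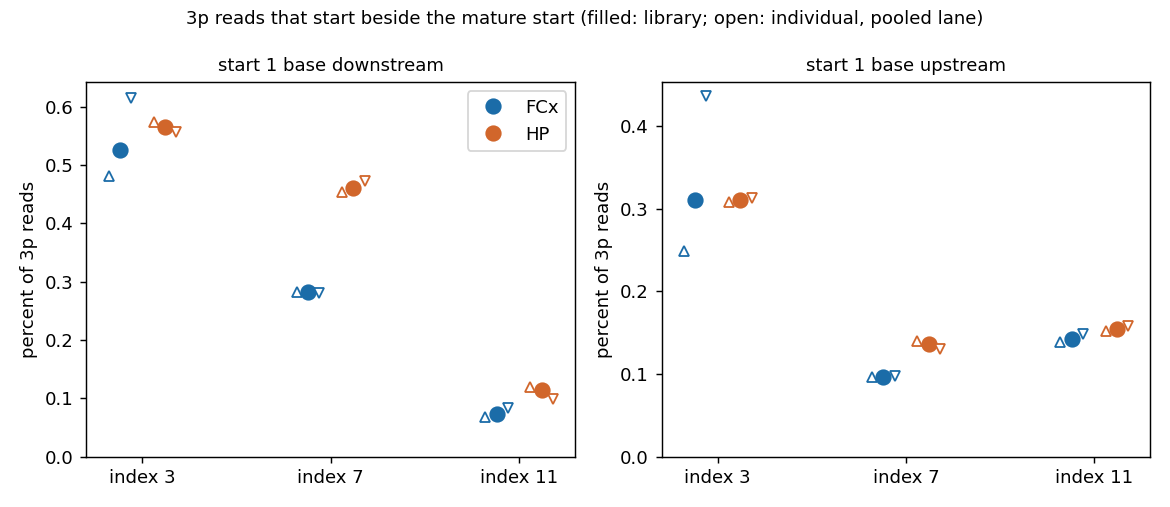
Percent of 3p reads that start 1 base downstream (left) or upstream (right) of the mature start (vertical axes) for each index (horizontal axis). Filled points are libraries and open triangles their lanes. The downstream share falls from index 3 through index 7 to index 11 in FCx and in HP.

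The 3′ end and the length showed the same narrow distribution in both regions. The share of 3p reads that ended at base 22, counted from the mature start, was 97.3%, 97.3% and 98.1% in the FCx libraries and 96.5%, 97.1% and 98.0% in those of HP for indexes 3, 7 and 11. The means of 97.6% ± 0.483 and 97.2% ± 0.768 (SD, n = 3) overlapped (exact permutation p = 0.4). The mean length was 21.943 ± 0.00187 nt in FCx and 21.939 ± 0.00211 nt in HP (SD, n = 3, exact permutation p = 0.2). Over all files 98.0% of the 3p reads were 22 nt long, 0.985% were 16 nt and 0.810% were 23 nt, and lengths from 18 to 21 nt together made up 0.0778%. Alignments of the mature length of 21 nt were thus nearly absent. As stated above, a 22-base alignment cannot be told apart from a shorter mature strand with adaptor bases left on. Across the series, 88.1% of all alignments of 14 nt or more were 22 nt long. At 70 of the 97 start sites with at least 10000 reads, over 90% of the reads had this length. The part of read trimming in the lengths at miR-128 was not tested.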

How the data were processed

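Small RNA was measured by miRNA-Seq on the Illumina Genome Analyzer II in 6 libraries (12 lane files). The count values, as deposited by the authors, are raw numbers of reads, lane file by lane file, assigned to the mature miRNAs of miRBase 11. The authors describe that they removed the index and the 3′ adaptor and discarded adaptor dimers, mitochondrial and ribosomal sequences and reads under 14 nt. They aligned with Bowtie with up to 2 mismatches. Still, the deposited alignments included some under 14 nt. For indexes 3, 7 and 11 these were 22.4%, 12.7% and 2.90% of the FCx and 5.80%, 3.74% and 1.14% of the HP alignments. The bed files give, as deposited by the authors, positions in NCBIM37 without read sequences, and the deposited alignment score is constant and was not used. No column of per-sample values was left unused (0).

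Lanes were summed per library. Levels were tested with edgeR 4.0.16 in R 4.3.3 (quasi-likelihood, TMM, Benjamini-Hochberg) on the 431 miRNAs whose counts summed to 2 or more in a region, with DESeq2 1.42.0 as an alternative. Every adjusted p printed is over all miRNAs that passed this filter in the libraries of that fit. The index was paired by its number in the labels. Log2 CPM values, centred within regions, correlated with r of 0.772, 0.854 and 0.836 for library pairs with a common index and from -0.597 to -0.245 for the other pairs, so the index was also fitted as a block. Shares were compared with exact permutation tests (Python 3.11.15, pandas 2.3.3, numpy 2.4.6, scipy 1.17.1). Hairpin reads had 14 nt or more, at least 1 base on the hairpin and its strand. A read belonged to an arm when it overlapped the mature sequence by at least 10 bases. Sequences were read with pysam 0.24.0 and samtools 1.23.1 from NCBIM37, with mature sequences from RefSeq (GRCm38.p6 table), and plots were drawn with matplotlib 3.10.9. Intervals cover counting error only.

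The named miRNAs were the 4 on each side of miR-128 by mean CPM (1 above it exists), the 5 most correlated in log2(CPM + 1) over the libraries and after centring, those with a related seed, and a list of 27 brain miRNAs (values for those called in a fit and for miR-124, miR-9, miR-132 and miR-138). The members and lists were chosen with earlier results of these data known. In simulated counts with 200 changed miRNAs the unblocked test recovered none and the blocked test 127 when an index effect was added, with 0 and 25 false calls. Without an index effect they recovered 146 and 139, with 9 and 12 false calls. The index effect and the spread of the simulation were taken from these same libraries, so the gain from the block was built in.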

Additional observations from a re-analysis of the deposited data

Results flagged for a closer look

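Outside the hairpins, 2 places of the genome differ from the mature sequence by 2 bases and held reads. They were flagged for holding more than the 3 that a count of 0 allows, which is no background for miR-128 reads with base changes. The sites are printed with the differing bases in capitals, and positions are counted from 1 at the mature 5′ end.
chromosome 1 site: ucacagugaGccgguUucuuu
chromosome 10 site: ucacagugaGAcggucucuuu
The site at chr1:34425890-34425910 on the minus strand (A10G and C16U, the mature base first) held 586 reads and lies in no annotated gene. Of these 584 began at the mature start, with 67, 175 and 72 in the FCx libraries and 75, 91 and 104 in those of HP for indexes 3, 7 and 11. Relative to the hairpin reads they were 0.0878%, 0.0681% and 0.0532% in the FCx libraries and 0.0368%, 0.0261% and 0.0233% in those of HP. Each FCx library was above each HP library, and the difference was not tested. The site at chr10:114740347-114740367 on the minus strand (A10G and C11A) held 109 reads and lies in an intron of Rab21. Without read sequences, transcripts of these sites and miR-128 reads with base changes cannot be told apart.

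Over 20 groups of 6 lane files, none held a lane far from the others by Dixon's criterion.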

How the results depend on the processing

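The log2 fold change of miR-128, FCx over HP, kept its direction under all 17 alternatives. It crossed the threshold with the replicate block on library totals (1.29, edgeR adjusted p = 3.80e-15). Adjusted p ranged from 3.80e-15 to 1, and leaving out each library gave 0.70 to 1.66. With the replicate block and TMM it was 0.86. The block raised the calls from 2 to 77 of 431 with TMM and to 56 on library totals. The span between indexes became significant on library totals (0.45, adjusted p = 0.0285), with DESeq2 size factors in edgeR and in DESeq2's likelihood ratio test (both 1.14), without the filter (1.15) and in individual lanes (1.17). Leaving out libraries gave 0.58 to 1.64, and pooled lanes gave an adjusted p of 0.677. The cause was not tested.

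The difference in share kept its direction under 11 alternatives and was 18.5 percentage points without the other 4 most abundant miRNAs. That in chromosome 9 placement kept its direction under 12. Leaving out libraries gave 10.3 to 12.6 and -1.14 to -0.245. The difference at the main 5′ start ran from -0.047 to 0.315 when libraries were left out and reversed without index 11 in FCx (-0.047) or index 3 in HP (-0.0438). That at the main 3′ end ran from -0.019 to 0.745 and reversed without index 3 in HP. The 5p share ran from -0.00167 to 0.00583 and reversed without index 3 in FCx (-0.00167) or index 11 in HP (-0.000231), and in pooled lanes (-0.00274). Mean length reversed in reads of 18 to 25 nt (-0.000946) and on chromosome 9 (-0.00699), and ran from 0.00249 to 0.00474 when libraries were left out. With the index as a replicate block, sign-flip p was 0.25 for the share, chromosome 9 and both ends, 0.75 for the 5p arm and 0.5 for length. Sums over 7 to 50 reads limit the 5p arm, and the RNA pools limit every comparison to technical spread.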
